A study of Mus musculus with 4 samples.

Results

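The cells described are IL-17 type T cells, 55 of the 10077 cells in a single-cell RNA-seq series of mouse lung. They were chosen by their own counts of unique molecular identifiers (UMIs, each 1 captured mRNA molecule). A cell needed at least 1 UMI of the CD3 genes Cd3e, Cd3d and Cd3g together and at least 1 UMI of Cd163l1, Il17a, Il17f and Blk together. It also needed 0 UMIs of the B-cell gene Cd79a and less than 4% of its UMIs from Sftpc, the surfactant gene of alveolar type II (AT2) cells. The other T cells, 406 in number, had at least 2 CD3 UMIs, none of the 4 type genes and the same Cd79a and Sftpc limits.

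The study removed part of the lung (pneumonectomy, PNX) in mice with or without the small GTPase Cdc42 in AT2 cells and looked at the regrowing alveoli. The mice carried Sftpc-CreER and the Rosa26-mTmG reporter, and each had 4 doses of tamoxifen, which switches Cre-expressing cells to GFP. GFP+ cells were sorted, and the submitters label every library AT2. The 4 libraries are Cdc42 AT2 null mice (Cdc42flox/-) on day 21 after PNX (null PNX), the same genotype after sham treatment (null sham), control mice (Cdc42flox/+) on day 21 after PNX (control PNX) and control mice after sham treatment (control sham). The labels give postnatal day 80 for each, and no label says how many mice a library pools. The Sftpc promoter that drives Cre is not a T-cell promoter, so T cells are outside the labelled lineage, and how they passed the GFP gate was not tested. With 1 library per group no difference between libraries has a replicate check, and every interval below covers counting error only.

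IL-17 type T cells are lymphocytes that store transcripts of the cytokines IL-17A and IL-17F and can secrete them quickly. They include gamma delta T cells that leave the thymus already committed, alpha beta Th17 cells and innate-like cells of other lineages. In the lung they sit in tissue rather than recirculate, and IL-17 acts on epithelium through the receptor subunits IL-17RA and IL-17RC to raise antimicrobial proteins and neutrophil-attracting chemokines. Cd163l1 (SCART1) is a scavenger-receptor family gene of IL-17 committed gamma delta cells in mouse. Blk is a Src-family kinase of B cells that these gamma delta cells also use. T-cell receptor constant and variable genes were not analysed here, so gamma delta and alpha beta cells could not be told apart by their receptor.

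The promoters of both cytokine genes are shown because they carry the cytokine output that names the cell type. Il17a (chr1:20730905-20734496, plus strand) and Il17f (chr1:20777146-20790617, minus strand) are neighbouring protein-coding genes in GRCm38, the assembly also called mm10. The 250 bases before each RefSeq start are written 5′ to 3′ on the gene's strand. Capitals mark matches to AGGTCA, a half-site bound by many nuclear receptors, on either strand.
Il17a, chr1:20730655-20730904, plus strand: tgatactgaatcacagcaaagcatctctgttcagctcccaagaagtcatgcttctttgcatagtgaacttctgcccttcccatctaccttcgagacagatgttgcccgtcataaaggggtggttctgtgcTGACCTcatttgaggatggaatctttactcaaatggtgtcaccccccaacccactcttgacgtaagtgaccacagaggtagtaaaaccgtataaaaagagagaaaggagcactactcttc
Il17f, chr1:20784271-20784520, minus strand: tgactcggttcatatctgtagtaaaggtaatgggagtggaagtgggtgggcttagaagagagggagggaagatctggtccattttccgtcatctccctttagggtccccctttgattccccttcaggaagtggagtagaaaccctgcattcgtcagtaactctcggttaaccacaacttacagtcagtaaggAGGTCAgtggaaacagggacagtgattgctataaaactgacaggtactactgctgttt
Each promoter held 1 match, read as TGACCT in Il17a (AGGTCA on the opposite strand) and as AGGTCA in Il17f, and the match began 120 bases before the start of Il17a and 58 bases before that of Il17f. Of the 32851 RefSeq mouse promoters (GRCm38.p6, 250 bases before to 50 after the start), 16.26% held AGGTCA on either strand. The longer half-site TAGGTCA, which contains AGGTCA, was in 2.606% of all promoters, in 0 of the 3 matched promoters of type genes (Il17a, Il17f and Cd163l1) and in 1 of 14 promoters of 9 matched leading genes (named below), that of S100a4. A match is a description of letters only.

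IL-17 type cells came mostly from null PNX. There were 33 in null PNX, 13 in null sham, 7 in control PNX and 2 in control sham, beside 78, 162, 59 and 107 other T cells in the same libraries. As a share of all T cells they were 29.73% in null PNX (exact 95% interval 21.43 to 39.15%) and 7.429% in null sham (4.015 to 12.37%). In control PNX they were 10.61% of T cells (4.372 to 20.64%), and in control sham 1.835% (0.223 to 6.471%). The null PNX interval lay above those of the other 3 libraries, while those of null sham and control PNX overlapped. As a share of all sorted cells they were 1.392%, 0.3888%, 0.3108% and 0.09474% in the same order of libraries, a value that also moves with how many non-AT2 cells passed the sort.

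**Figure D1:**
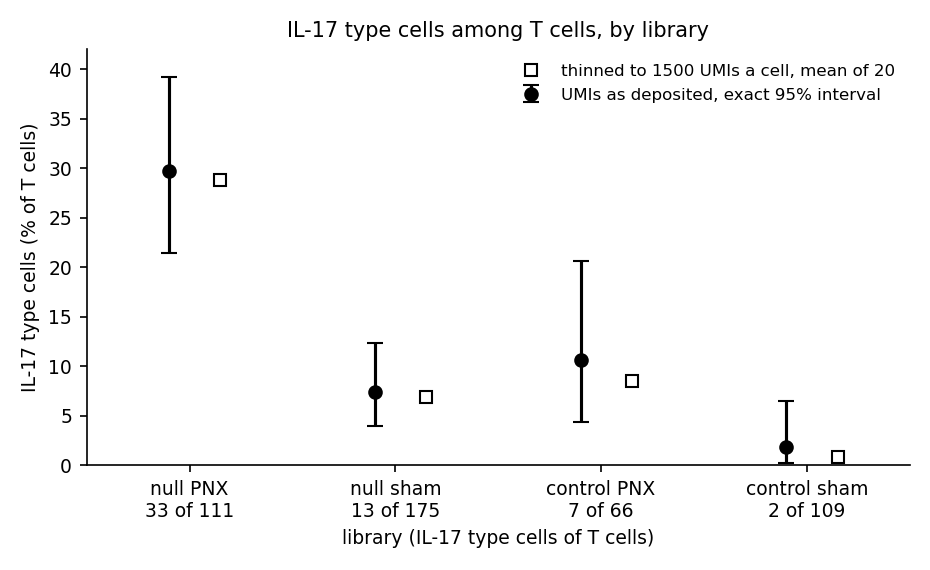
IL-17 type cells as a percentage of T cells in each library, with exact 95% intervals (filled circles) and after thinning every cell to 1500 UMIs (open squares, mean of 20 thinnings). Null PNX stands at 29.73%, against 7.429% in null sham, 10.61% in control PNX and 1.835% in control sham.

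Depth differed between the libraries. The lowest UMI count of any deposited cell was 2669 in null PNX, 1379 in null sham, 1171 in control PNX and 691 in control sham, so shallow T cells were kept in some libraries and not in null PNX. Counting only T cells with at least 2669 UMIs, the IL-17 type cells were 33 of 111, 12 of 101, 4 of 46 and 2 of 59, or 29.73%, 11.88%, 8.696% and 3.39%. With every T cell thinned to 1500 UMIs, the shares were 28.79%, 6.86%, 8.524% and 0.8449%, with 111, 172, 65 and 102 T cells deep enough to keep. Null PNX had the largest share under both settings, and null sham and control PNX exchanged order when shallow cells were left out. Median depth was 3365, 3489, 3571 and 5199 UMIs in the IL-17 type cells and 3420, 2800, 3027 and 2718 in other T cells. Mitochondrial UMIs were a median of 2.592% in IL-17 type cells and 2.909% in other T cells, and 0 of the 55 barcodes occurred in another library.

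The type genes are described here with no test, since they chose the cells. Blk was detected in 43 cells and Cd163l1 in 41, with both in 33. Cd163l1 had up to 7 UMIs in a cell and a median of 2, and its level, in CPM (UMIs of the gene scaled to all UMIs of the summed cells), was 671 CPM in null PNX, 784 CPM in null sham, 337 CPM in control PNX and 0 CPM in control sham. Blk stood at 471, 314, 210 and 288 CPM in the same order. Blk was thus seen in every library and Cd163l1 in 3 of the 4.

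Il17a was detected in 10 cells (7 in null PNX and 3 in null sham) and Il17f in 7 (4 in null PNX, 2 in null sham and 1 in control PNX). Together 13 cells had either cytokine and 4 had both. The cytokine transcripts were unevenly held. A single null PNX cell carried 16 of the 27 Il17f UMIs and 7 Il17a UMIs, and a single null sham cell carried 9 of the 30 Il17a UMIs. The other 42 cells entered the class through Cd163l1 or Blk, and 9 of them through Blk alone (5, 1, 1 and 2 by library).

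The 4 type genes were rare in cells that should lack them. Among 6799 AT2 cells (no CD3 UMI and at least 4% of UMIs from Sftpc) with a median of 5384 UMIs, deeper than the 3478 of IL-17 type cells, Cd163l1 was seen in 0.1471%, Il17a in 0.01471% and Blk in 0.04412%. Il17f was seen in 0 of them, which allows a share of up to 0.04412%. Blk was present in 23.08% of 78 B cells, and 8 of the 9 cells gated through Blk alone had Cxcr6, which was seen in 0 of the B cells (a count that allows up to 3.846%). Cells just inside the rule were 9 with a single type-gene UMI, of which 8 had Cxcr6. Just outside it, 5 cells with type genes and CD3 had Sftpc at 4% or more, a median of 17942 UMIs and no Cxcr6, and 11 had type genes without CD3.

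The label was then set against 8 marker genes of IL-17 type T cells that the rule did not use, Cxcr6, Il23r, Il1r1, Ccr6, Il7r, Maf, Sox13 and 5830411N06Rik. At least 2 of them were detected in 53 of 55 IL-17 type cells (96.36%) and in 84 of 406 other T cells (20.69%), and at least 3 in 39 (70.91%) and in 29 (7.143%). The CD3 genes helped choose the cells and are described only, with a median of 15 UMIs and never fewer than 5 in an IL-17 type cell. Both control sham cells, gated through Blk alone, had at least 3 of the markers, but the first had 6 UMIs of Nkg7, a cytotoxic granule gene, and the second had 1 UMI each of Cd8a and Cd8b1. One null sham cell went against the label. It had 10929 UMIs, a single Blk UMI, 0 UMIs of Cxcr6 and Tmem176a, 4 of the Treg factor Foxp3, 6 of Ctla4 and 58 of the proliferation-linked gene Hmgb2. Leaving it out changed no direction among 70 genes followed across settings.

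**Figure D2:**
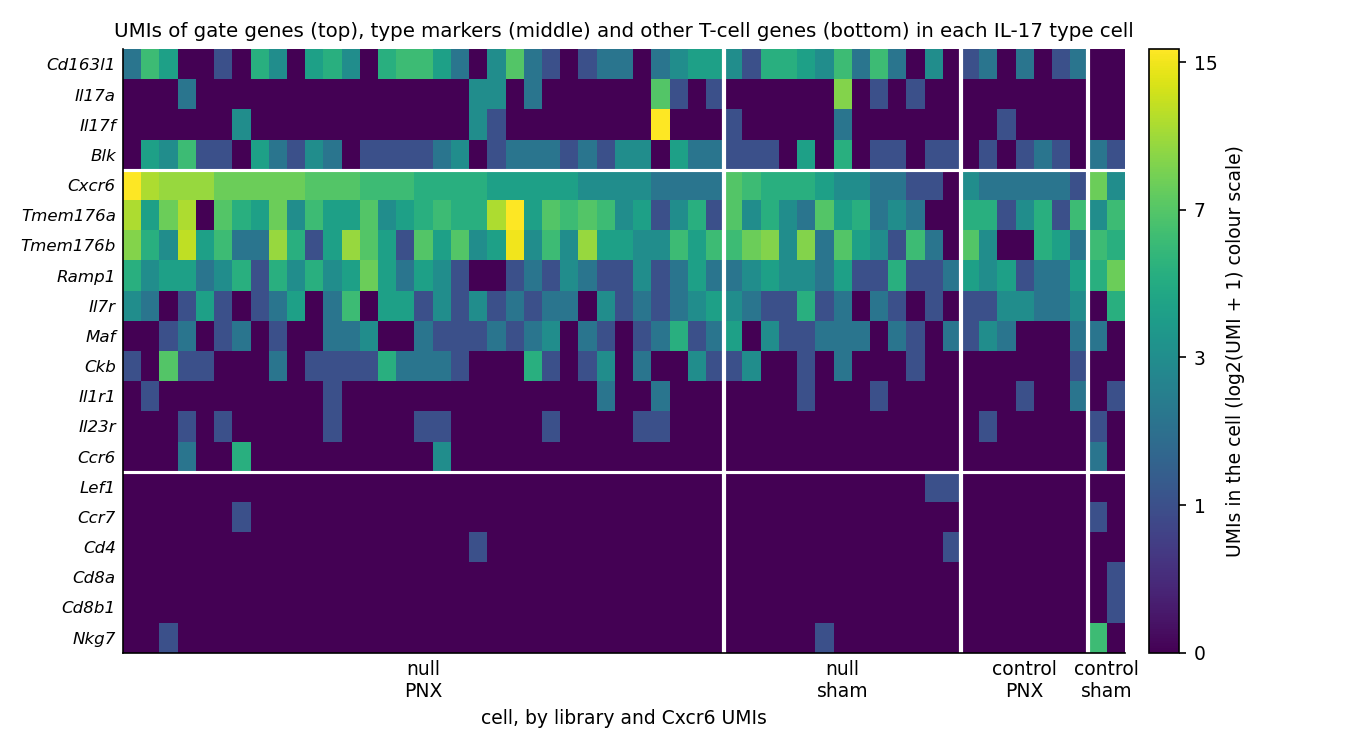
UMIs of 20 genes (rows) in each of the 55 IL-17 type cells (columns), grouped by library from null PNX to control sham and ordered by Cxcr6. The colour runs on a log2(UMI + 1) scale. The type genes at the top are patchy, Cxcr6, Tmem176a, Tmem176b and Ramp1 fill most columns in all 4 libraries, and the naive and lineage genes at the bottom are nearly empty.

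To ask which genes outside the rule mark these cells, UMIs were summed over IL-17 type cells and over other T cells in each library and compared with edgeR's quasi-likelihood test, with library as a block (n = 4 libraries) and Benjamini-Hochberg adjustment. Of 2054 genes tested, 63 (3.07%) were higher and 97 (4.72%) lower in IL-17 type cells at adjusted p under 0.05, and the median log2 fold change was -0.05. The higher genes were led by a chemokine receptor, a leukotriene receptor, the transcription factor Maf and a set of genes known from IL-17 committed gamma delta cells. The leading lower genes included those of naive, CD8, cytotoxic and regulatory T cells and neutrophil genes.

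**Figure D3:**
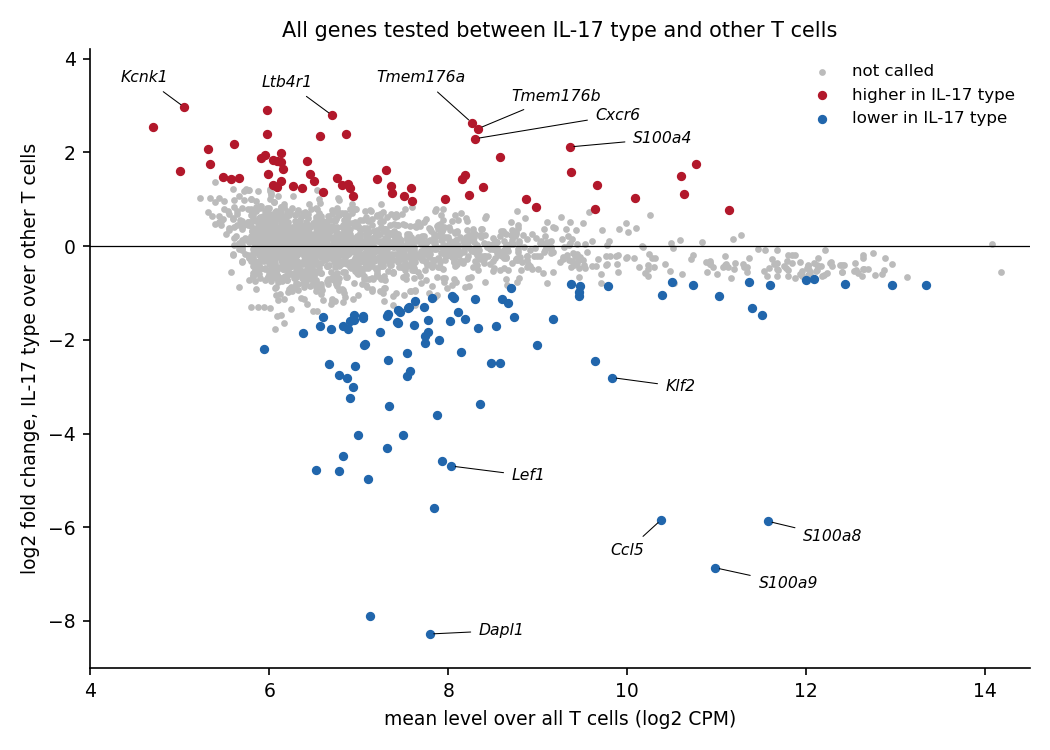
Log2 fold change of IL-17 type over other T cells (y axis) against mean level in log2 CPM (x axis) for the 2054 genes tested, with 63 higher genes in red, 97 lower in blue and the rest in grey. Cxcr6, Tmem176a and Tmem176b lie at the top at moderate level, and Ccl5 and Lef1 lie far below 0.

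Among transcription factors, Maf, which gamma delta T cells need to take up the IL-17 fate, had 316, 392, 337 and 192 CPM in IL-17 type cells of null PNX, null sham, control PNX and control sham, against 45.5, 71.3, 33.9 and 73.8 CPM in other T cells. The 2 sets of libraries did not overlap, and the log2 fold change was 2.35 ± 0.34 (SE, adjusted p = 3.5e-06). Rora, a nuclear receptor gene of Th17 cells, rose by 1.31 ± 0.35 (adjusted p = 0.013), and Id2, an inhibitor of E proteins, by 0.79 ± 0.23 (adjusted p = 0.022). Of the 19 factors listed, 4 passed the filter on low counts, and 3 of these rose while Batf did not pass the test. The Rora call was lost without null PNX (adjusted p = 0.061) and without null sham (0.17), and the Id2 call without null sham (0.46), control PNX (0.16) or control sham (0.10). Maf kept its call without each library in turn.

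Receptors rose with them. Cxcr6, the receptor for the membrane-bound chemokine CXCL16, had 1513, 862, 589 and 1058 CPM in IL-17 type cells of null PNX, null sham, control PNX and control sham, against 321, 79.0, 165 and 175 CPM in other T cells. Every IL-17 type sum was above every other T-cell sum, and the log2 fold change was 2.29 ± 0.27 (adjusted p = 4.4e-08). It was detected in 54 of 55 IL-17 type cells, against 22.66% of other T cells and 19 of 6799 AT2 cells.

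Ltb4r1, the receptor for the neutrophil and T-cell attractant leukotriene B4, had 556, 314, 252 and 673 CPM in IL-17 type cells, against 98.6, 21.2, 63.0 and 27.7 CPM in other T cells. The libraries did not overlap, with a log2 fold change of 2.79 ± 0.35 (adjusted p = 2.2e-07). Ccr2, a receptor for monocyte chemoattractants, rose by 1.53 ± 0.35 (adjusted p = 0.0023) and Tnfrsf25, the receptor of the TNF-family ligand TL1A, by 1.54 ± 0.42 (adjusted p = 0.015). Of the 21 receptors listed, 7 passed the filter on low counts. Of these 7, 4 rose and none fell, with a median log2 fold change of 1.53. Below the filter, the IL-6 receptor gene Il6ra had 0 UMIs in IL-17 type cells and 91 in other T cells.

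The interleukin receptors gave smaller or sparser differences. Il7r, the IL-7 receptor chain on which these cells depend for survival, had 509, 372, 631 and 481 CPM in IL-17 type cells, against 233, 226, 310 and 286 CPM in other T cells. Every IL-17 type sum was higher, yet the log2 fold change of 0.71 ± 0.26 did not pass the adjustment (adjusted p = 0.088). It passed without the null sham cell described above (0.82, adjusted p = 0.026). Il18r1, a chain of the IL-18 receptor, stood at 1.20 ± 0.39 (adjusted p = 0.051), just short of the threshold, and passed without control sham (0.021). Il23r and Il1r1, receptors for the cytokines that trigger IL-17 release, were detected in 10 and 9 IL-17 type cells. Both fell below the filter on low counts. In a fit with no filter, which tested 13640 genes and called 0.411% higher and 1.63% lower, Il23r was higher by 3.79 ± 1.06 (adjusted p = 0.023) and Il1r1 by 3.05 ± 0.79 (adjusted p = 0.0096). Of the 10 Il23r UMIs in IL-17 type cells 8 came from null PNX and 0 from null sham, where other T cells had 1. Ccr6, the receptor for CCL20, was seen in 4 of 55 cells and did not pass (adjusted p = 0.12).

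Secreted products other than the IL-17 genes were sparse. Furin, a protease that activates cytokine precursors, rose by 1.25 ± 0.39 (adjusted p = 0.037), a call lost without null PNX (adjusted p = 0.11), null sham (0.18) or control PNX (0.066). Ltb, which encodes lymphotoxin beta, had 1690, 1156, 2567 and 192 CPM in IL-17 type cells, against 1034, 727, 1037 and 803 CPM in other T cells. It was lower than other T cells in control sham, where it rests on 2 UMIs, and higher in the other 3 libraries, and it did not pass (0.37 ± 0.27, adjusted p = 0.55). Il22 was detected in 1 cell, Csf2 in 7 and Areg in 7.

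Surface and other genes known from gamma delta 17 cells rose together. Of the list's 21 tested genes 17 rose and 1 fell, with a median log2 fold change of 1.65. Of the 17, Pxdc1 lost its call without null PNX (adjusted p = 0.063) and S100a11 without null sham (0.22) or control PNX (0.23). The adjacent genes Tmem176a and Tmem176b (chromosome 6), which encode cation-channel proteins of intracellular membranes, were among the leading genes of the whole test. Tmem176b had 1366, 1176, 884 and 1058 CPM in IL-17 type cells, against 410, 90.6, 141 and 89.2 CPM in other T cells, with a log2 fold change of 2.51 ± 0.28 (adjusted p = 1.6e-08). Tmem176a rose by 2.63 ± 0.29 (adjusted p = 1.6e-08). Both are also AT2 genes, detected in 61.1% (Tmem176a) and 69.22% (Tmem176b) of AT2 cells, while Sftpc was a median of 0.4924% of UMIs in IL-17 type cells and 0.5032% in other T cells.

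Kcnk1, a potassium channel, had the largest rise of any called gene with at least 30 UMIs. It had 170, 176, 126 and 96.2 CPM in IL-17 type cells, against 43.0, 3.86, 4.85 and 0 CPM in other T cells, with a log2 fold change of 2.96 ± 0.54 (adjusted p = 0.00013). Ly6g5b followed with 2.90 ± 0.41 (adjusted p = 2.6e-06). The serpin gene Serpinb1a, an inhibitor of neutrophil proteases, rose by 2.40 ± 0.36, and Podnl1, a small leucine-rich proteoglycan gene, by 2.39 ± 0.36, both at adjusted p under 1e-05. Ramp1, a co-receptor for the neuropeptide CGRP, had 710, 627, 842 and 1250 CPM in IL-17 type cells, against 301, 156, 228 and 246 CPM in other T cells (1.52 ± 0.24, adjusted p = 1.6e-05). None of these per-library values overlapped between the cell groups for Kcnk1 or Ramp1. Like the Tmem176 genes, Ramp1 is also an AT2 gene, detected in 59.98% of AT2 cells.

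A calcium-binding and adhesion set rose with them. S100a4 had 1837, 1784, 2230 and 4809 CPM in IL-17 type cells, against 516, 326, 412 and 615 CPM in other T cells (2.12 ± 0.22, adjusted p = 8.8e-09). S100a6 (1.75 ± 0.24), Capg, an actin-capping protein gene (1.89 ± 0.26), Lgals1 (1.49 ± 0.22) and Lgals3 (1.59 ± 0.29), which encode galectins, and Cd44, a hyaluronan receptor gene (1.62 ± 0.31), all passed at adjusted p under 0.001. Cd9, a tetraspanin gene, was the list's lower gene, by -2.07 ± 0.41 (adjusted p = 0.00052). Without the 7 other T cells above 10000 UMIs it no longer passed (adjusted p = 0.084). Outside the lists, the leading higher genes were the growth factor receptor Igf1r (2.55 ± 0.54), Prelid2 (2.17 ± 0.41), Asb2 (2.07 ± 0.45), Amica1, a junctional adhesion gene (2.00 ± 0.40), and the septin Sept11 (1.94 ± 0.39). The sparse gene Ckb, encoding brain-type creatine kinase, was higher by 2.47 ± 0.47 in the fit with no filter (adjusted p = 4.0e-05) and was seen in 49.09% of IL-17 type cells and 5.419% of other T cells. Of its 53 UMIs in IL-17 type cells 44 came from null PNX, with 8 in null sham, 1 in control PNX and 0 in control sham. The 14 UMIs of 5830411N06Rik, a relative of Cd163l1, came from 3 cells of null PNX.

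**Figure D4:**
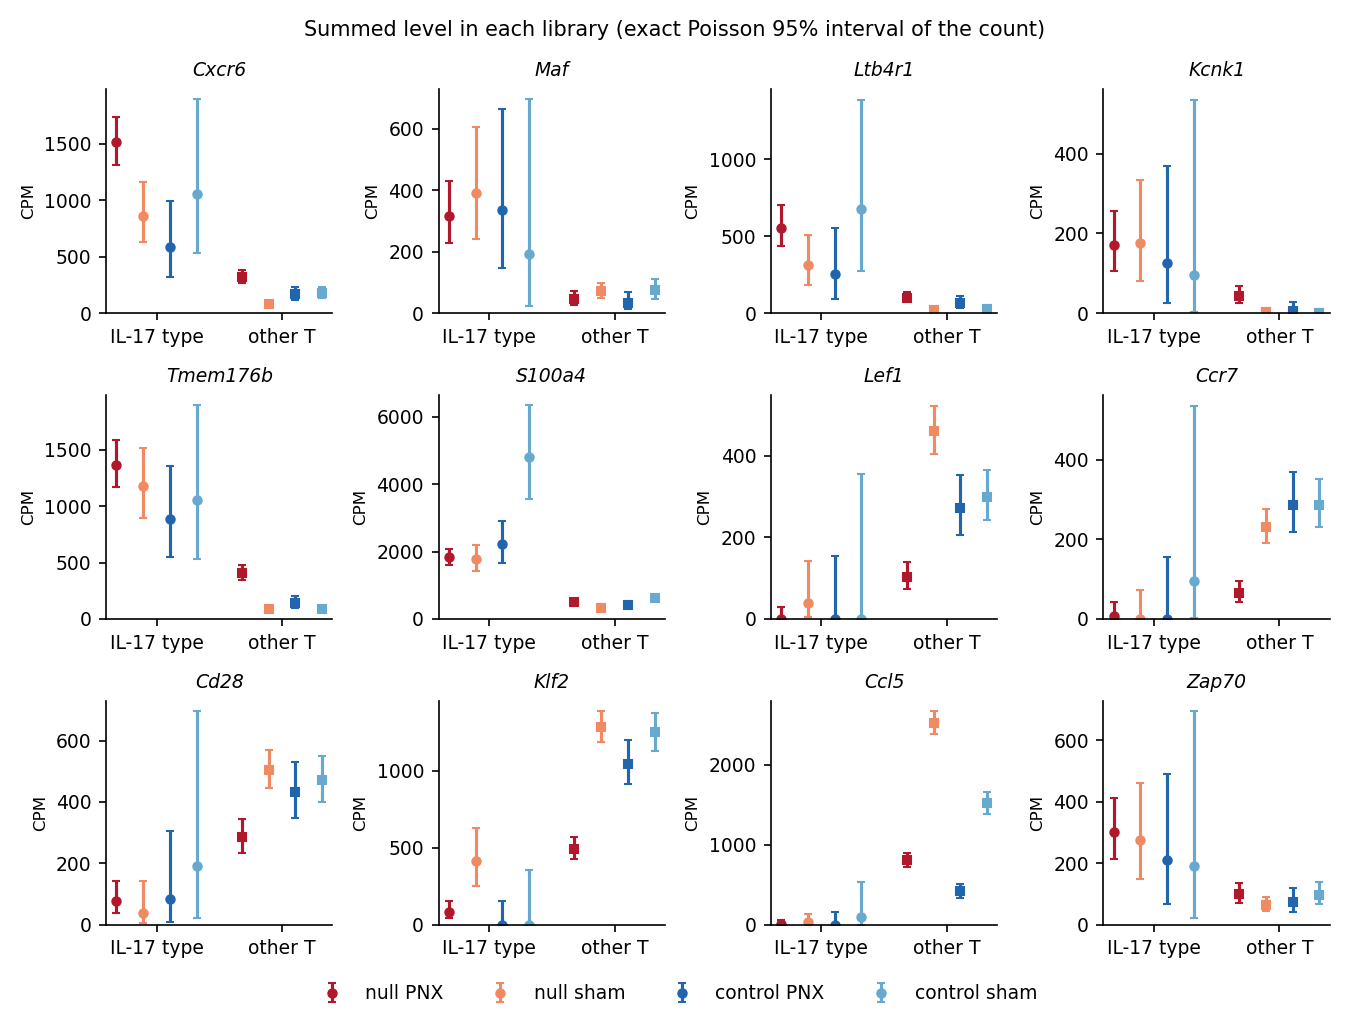
Summed level in CPM of 12 genes in IL-17 type cells (circles, left) and other T cells (squares, right) of each library, with exact Poisson 95% intervals. Cxcr6, Maf, Ltb4r1, Kcnk1, Tmem176b, S100a4 and Zap70 are higher in the IL-17 type cells of all 4 libraries, and Lef1, Ccr7, Cd28, Klf2 and Ccl5 are lower in all 4. The control sham intervals are wide because 2 cells lie behind them.

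Genes of naive and recirculating T cells were almost empty. Of 13 tested, 12 fell, and the list's median log2 fold change was -3.60, which stays the same with Dapl1, at 0 UMIs in the IL-17 type cells, put at its bound. Lef1, a transcription factor of naive T cells, had 0, 39.2, 0 and 0 CPM in IL-17 type cells, against 104, 461, 271 and 298 CPM in other T cells (-4.69 ± 0.60, adjusted p = 3.5e-07). Ccr7, the lymph-node homing receptor, had 7.72, 0, 0 and 96.2 CPM, against 65.7, 231, 286 and 286 CPM (-4.04 ± 0.66, adjusted p = 2.5e-05). The IL-17 type cells carried 2 UMIs of each gene in all, and in every library the sum was lower than in other T cells. Klf2, which keeps the exit receptor S1PR1 on, fell by 2.81 ± 0.36 on the log2 scale (adjusted p = 3.5e-07).

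Dapl1 had 0 UMIs in IL-17 type cells and 368 in other T cells, which is at least 18.2-fold lower when 3 counts over all IL-17 type cells are taken as the floor. Ly6c2, Igfbp4 and Ly6c1 were called lower with 1, 2 and 3 UMIs left in the IL-17 type cells. Tcf7, a factor shared by naive and memory-like T cells, was retained in 19 of 55 cells and did not pass (-1.09 ± 0.37, adjusted p = 0.069), though it passed without null PNX (0.026) or control PNX (0.022). Residency genes gave no call among 4 tested, with Cd69 at -0.10 ± 0.37 and Rgs1 at 0.74 ± 0.35.

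The CD4 and CD8 genes were sparse in the IL-17 type cells. Cd4 was detected in 2 cells, Cd8a in 1 and Cd8b1 in 1. Cd8b1 was lower by -4.49 ± 0.82 (adjusted p = 0.00016), and in the fit with no filter Cd4 (-2.73 ± 0.82, adjusted p = 0.043) and Cd8a (-3.92 ± 0.92, adjusted p = 0.0031) were lower too. DESeq2 without a filter passed neither of these (adjusted p = 0.32 for Cd4 and 0.091 for Cd8a). Ccl5, a chemokine of memory and cytotoxic T cells, had 15.4, 39.2, 0 and 96.2 CPM in IL-17 type cells, against 809, 2523, 417 and 1516 CPM in other T cells (-5.84 ± 0.43, adjusted p = 6.3e-13). Nkg7 fell by 3.38 ± 0.54 on the log2 scale (adjusted p = 1.6e-05), but in control sham it was higher, with 577 CPM in IL-17 type cells against 295 CPM in other T cells, all from 1 cell. Izumo1r, the folate receptor of regulatory and anergic T cells, had 0 against 231 UMIs and was at least 11.4-fold lower. Of 4 tested cytotoxic and type 1 genes 2 fell and 0 rose, and of 3 tested regulatory genes 1 fell and 0 rose. Not every gene of these lists was sparse. Klrk1 was seen in 32.73% of IL-17 type cells and 7.389% of other T cells, and Ikzf2 in 41.82% and 17.24%. Gata3, the type 2 factor, stood at -0.64 ± 0.45 (adjusted p = 0.53).

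Within the T-cell receptor machinery the members moved in both directions. Of 19 tested genes 2 rose and 7 fell, with a median log2 fold change of -0.66. Zap70, the kinase that binds the phosphorylated CD3 chains, had 301, 274, 210 and 192 CPM in IL-17 type cells, against 101, 63.6, 72.7 and 98.4 CPM in other T cells (1.44 ± 0.33, adjusted p = 0.0026). Cd247, the CD3 zeta chain gene, rose by 1.08 ± 0.32 (adjusted p = 0.029), although in control sham it was lower on 1 UMI, and the call was lost without null PNX (adjusted p = 0.33) or control PNX (0.11). Lck, the kinase upstream of Zap70, fell by 1.71 ± 0.36 on the log2 scale (adjusted p = 0.00092) and was detected in 18.18% of IL-17 type cells and 69.46% of other T cells. Without null PNX the Lck and Cd2 calls were lost (adjusted p = 0.054 and 0.11), and in control sham Lck was higher in the IL-17 type cells, at 769 against 464 CPM. Cd28, the main co-stimulatory receptor, had 77.2, 39.2, 84.2 and 192 CPM in IL-17 type cells, against 286, 505, 431 and 470 CPM in other T cells (-2.50 ± 0.36, adjusted p = 3.5e-06). Cd5 (-2.57 ± 0.56), Cd6 (-2.29 ± 0.47), Cd2 (-1.55 ± 0.34) and Cd7 (-3.42 ± 0.69), surface receptors that tune T-cell activation, and the Fc receptor gamma chain gene Fcer1g fell as well. The pan-T gene Thy1 did not pass (0.51 ± 0.25, adjusted p = 0.27).

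**Figure D5:**
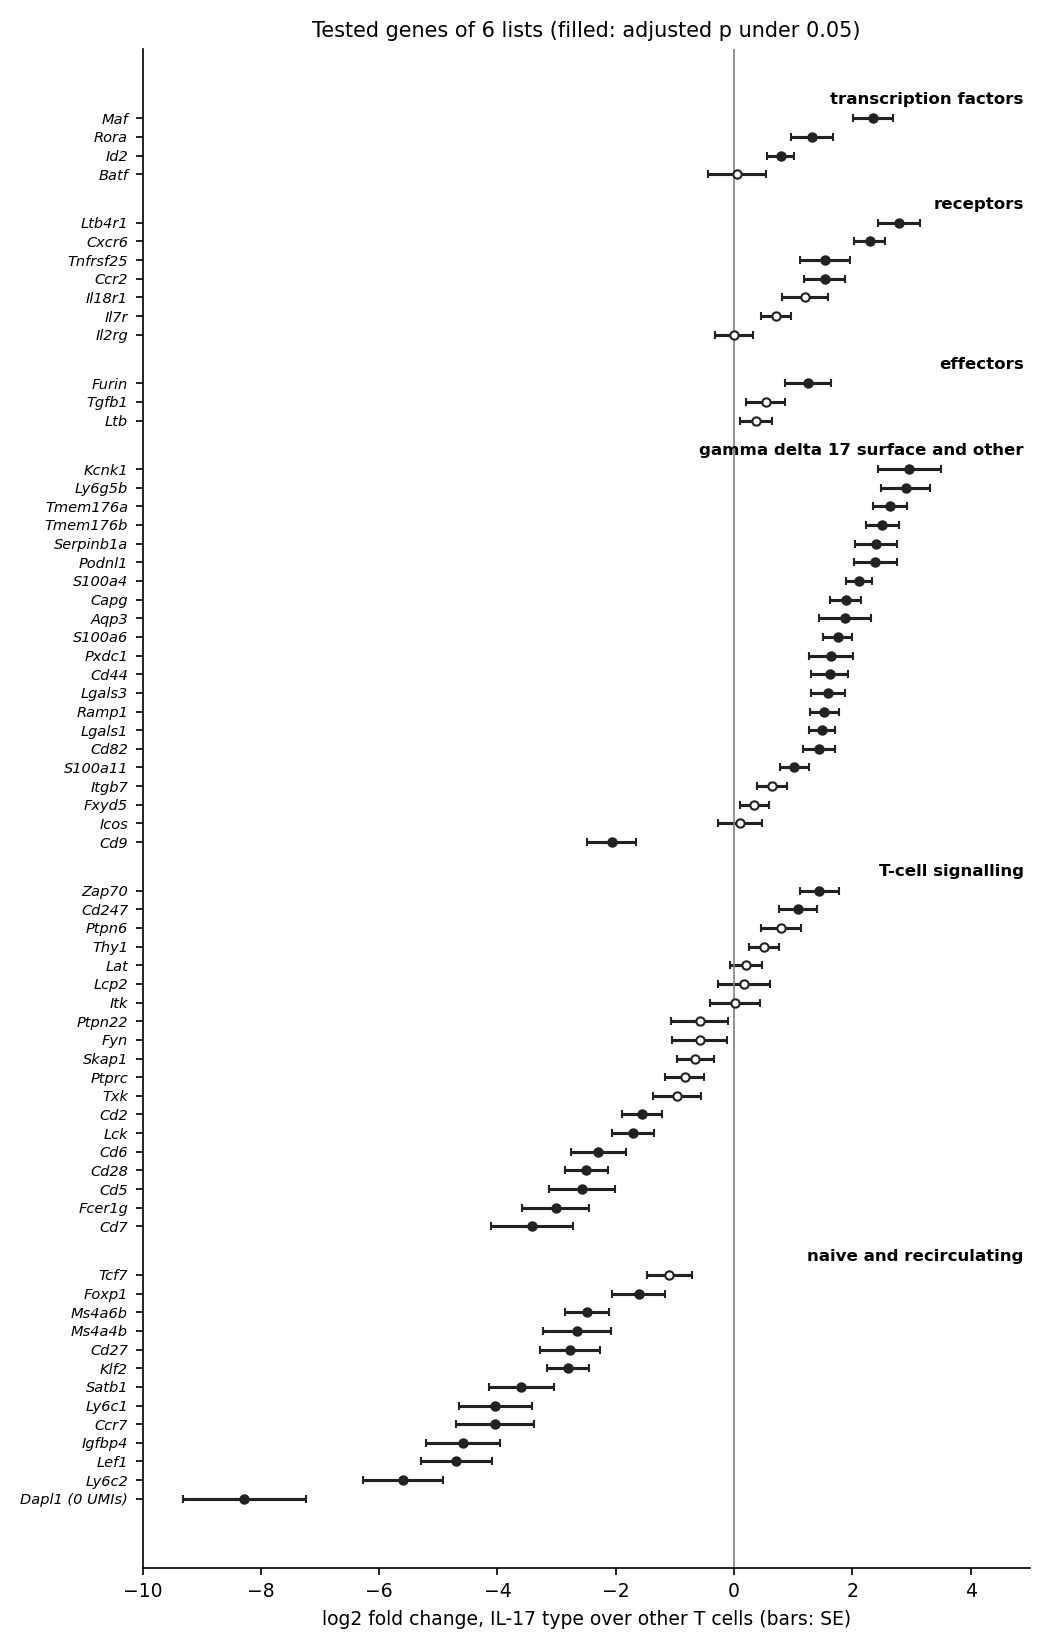
Log2 fold change of IL-17 type over other T cells with its SE (x axis) for the tested genes of 6 lists, from transcription factors at the top to naive genes at the bottom. Filled circles passed at adjusted p under 0.05. Of the gamma delta 17 genes 17 lie filled to the right of 0, and of the naive genes 12 lie filled to the left.

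Activity lists gave few calls. Of 6 tested cell-cycle genes 1 fell, Ube2c, with 1 UMI in IL-17 type cells and 151 in other T cells (-4.77 ± 0.79, adjusted p = 3.3e-05), and Mki67 was detected in 1 of the 55. Ube2c was sparse in both groups, detected in 1.818% of IL-17 type cells and in 16 other T cells (3.941%). A single null PNX cell with 22670 UMIs held 24.5% of the Ube2c UMIs of the other T cells. Of 14 tested early-response and heat-shock genes 1 fell, Nfkbia, an NF-κB inhibitor (-0.97 ± 0.29, adjusted p = 0.033), and that call was lost without null sham (adjusted p = 0.50) or control sham (0.11). Of 4 tested interferon-response genes 1 fell, Ifi27l2a (-2.45 ± 0.42, adjusted p = 4.7e-05). It was detected in 3 IL-17 type cells, and a single null sham cell held 95.12% of its UMIs.

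Markers of other cells were measured beside these results. The B-cell markers Cd79a (0 by the rule) and Ms4a1 were at 0 in the IL-17 type cells, and all 5 fibroblast and all 4 basophil and mast-cell markers were at 0. Of 13 macrophage and monocyte markers 8 were at 0, among them Csf1r, Mrc1 and C1qa. AT2 markers summed to 10333, 8506, 7575 and 9136 CPM in IL-17 type cells, against 24630, 12895, 9163 and 11452 CPM in other T cells, and 6 of 8 tested AT2 markers were lower. The macrophage-lineage and AT2 gene Lyz2 was lower by -1.47 ± 0.24 (adjusted p = 2.3e-05), but without the 7 other T cells above 10000 UMIs it did not pass (-0.61, adjusted p = 0.064). S100a8 and S100a9, neutrophil genes, were lower by -5.87 ± 0.63 and -6.87 ± 0.61. In null PNX, S100a8 was not lower, with 30.9 CPM in IL-17 type cells against 27.8 CPM in other T cells. A single control PNX cell among the other T cells, with 21958 UMIs, held 65.76% of the S100a8 and 61.08% of the S100a9 UMIs of that group. Without control PNX these values were -3.55 and -4.51. The remaining leading lower genes were Pglyrp1, a peptidoglycan-binding protein gene (-4.96 ± 0.76), Ms4a6c (-4.80 ± 0.79) and Tyrobp, an adaptor of NK and myeloid receptors (-4.31 ± 0.65).

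Cxcr6 is also made by other tissue T cells, so the IL-17 type cells were set against the 92 other T cells with a Cxcr6 UMI, in a comparison added after the data were seen. Among T cells with Cxcr6, IL-17 type cells were 33 of 68 in null PNX (48.53%, interval 36.22 to 60.97%), 12 of 32 in null sham (37.5%, 21.1 to 56.31%), 7 of 22 in control PNX (31.82%, 13.86 to 54.87%) and 2 of 24 in control sham (8.333%, 1.026 to 27%). The null PNX interval here overlapped those of null sham and control PNX and lay above that of control sham. The share of other T cells with Cxcr6 was itself 44.87% in null PNX, against 12.35% in null sham, 25.42% in control PNX and 20.56% in control sham.

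Against these Cxcr6+ T cells, edgeR tested 833 genes and called 22 (2.64%) higher and 12 (1.44%) lower. Of these, 20 were also higher and 10 also lower against all other T cells. Maf was higher by 1.53 ± 0.31 (adjusted p = 0.0020), Serpinb1a by 1.39 ± 0.24 (adjusted p = 0.00034), Ltb4r1 by 1.34 ± 0.26 (adjusted p = 0.0015) and Tmem176a by 1.32 ± 0.24 (adjusted p = 0.00069). Capg, S100a4, S100a6, Lgals1, Cd44, Podnl1 and Ly6g5b also passed. Ccl5 (-6.74 ± 0.41, adjusted p = 1.2e-13), Nkg7 (-4.44 ± 0.52, adjusted p = 2.8e-07) and Cd28 (-2.50 ± 0.34, adjusted p = 4.3e-06) remained lower. Ramp1 (0.59, adjusted p = 0.28), Ccr2 (0.43, adjusted p = 0.69), Rora (0.42, adjusted p = 0.69) and Zap70 (0.83, adjusted p = 0.19) did not pass in this comparison.

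Between libraries the IL-17 type cells could be compared only as summed counts with no test. The sums rest on 129584 UMIs in null PNX, 51020 in null sham, 23762 in control PNX and 10398 in control sham. Over control PNX, the null PNX cells had 165 of 1106 measured genes (14.9%) at least 2-fold higher and 71 (6.42%) at least 2-fold lower, for genes with at least 20 UMIs in the pair. Over null sham, 140 of 1301 (10.8%) were at least 2-fold higher and 73 (5.61%) lower.

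Cxcr6 was 2.57 times as high in null PNX as in control PNX (interval 1.49 to 4.78) and 1.75 times as high as in null sham (1.26 to 2.49). The null sham sum includes the cell that went against the label, with 10929 UMIs and 0 of Cxcr6. Without cells gated through Blk alone, that cell among them, the log2 ratio over null sham was 0.452 instead of 0.798. Over control PNX it was 1.37 instead of 1.31. Per cell Cxcr6 had 2 to 16 UMIs with a median of 5 in null PNX, 0 to 7 with a median of 3 in null sham, 1 to 3 with a median of 2 in control PNX, and 3 and 8 in the 2 control sham cells. Other T cells also had their highest Cxcr6 in null PNX. Ltb4r1 was 2.2 times as high in null PNX as in control PNX (0.963 to 6.19) and 1.77 times as high as in null sham (1.02 to 3.26). Tnfrsf25 was 4.07 times as high in null PNX as in null sham, on 31 and 3 UMIs (1.27 to 20.8).

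For several genes of the cell type the ratio could not be told from 1. Maf was 0.940 times as high in null PNX as in control PNX (0.435 to 2.32) and 0.807 times as high as in null sham (0.462 to 1.45). Cd163l1 stood at 1.99 (0.969 to 4.76) and 0.856 (0.583 to 1.28), Il7r at 0.807 (0.456 to 1.52) and 1.37 (0.811 to 2.41), and Il17a over null sham at 0.680 (0.308 to 1.58). All of these intervals include 1. Ltb was lower in null PNX than in control PNX, at 0.658 (0.494 to 0.889), and higher than in null sham, at 1.46 (1.09 to 1.98). Of the 3 transcription factors measured over control PNX and the 4 over null sham, 0 passed 2-fold either way, and of 7 receptors 2 passed upward over control PNX and 1 over null sham.

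Among the largest ratios of genes with at least 50 UMIs, those of Clu, Krt8 and Krt18 were in genes that were also highest in the other T cells and AT2 cells of null PNX. Clu, encoding clusterin, had 1096 CPM in null PNX IL-17 type cells, against 0 in null sham, 0 in control PNX and 96.2 in control sham. In other T cells it had 2366, 19.3, 4.85 and 9.23 CPM, and in AT2 cells 1714, 189, 91.0 and 68.5 CPM. A single cell held 44.06% of the Clu UMIs of the IL-17 type cells. The null PNX level rests on 142 UMIs. The keratins Krt8 and Krt18 followed the same pattern, with 486 and 409 CPM in null PNX IL-17 type cells and 1690 and 1509 CPM in AT2 cells of that library. The same cell held 66.67% of the Krt8 and 43.4% of the Krt18 UMIs of the null PNX IL-17 type cells. Cd74, the MHC class II invariant chain gene, had 857 CPM in null PNX IL-17 type cells, 255 in null sham, 42.1 in control PNX and 288 in control sham. A single cell held 45.05% of the null PNX UMIs. In other T cells Cd74 had 1883, 331.5, 228 and 237 CPM in the same order, and in AT2 cells 8914, 3792, 5428 and 4665 CPM. Prdx1, a peroxiredoxin gene, had 748, 686, 42.1 and 962 CPM in the same order, so that control PNX, with 1 UMI, was low and the other 3 libraries were not.

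Among lower genes, Hmgb2 and H2afz were lower in null PNX than in null sham, where 87.88% and 76.12% of their UMIs came from 1 cell. Nfkbia was 3.94 times as high in null PNX as in null sham (1.91 to 9.43), but stood at 713 and 759 CPM in other T cells of these libraries and at 112 and 100.1 CPM in AT2 cells. Bcl2a1b, an anti-apoptotic BCL2-family gene, was 6.30 times as high in null PNX as in null sham, on 48 and 3 UMIs (2.03 to 31.6). In other T cells Bcl2a1b was also higher in null PNX than in null sham, at 194.7 against 48.2 CPM. The control sham IL-17 type cells had 384.7 CPM, against 370.4 CPM in null PNX.

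The epithelial partners of these cells were read from the AT2 cells, again with 1 library per group. The AT2 gate kept 1145 of 2370 cells in null PNX and 2113 of 3344 in null sham. In control PNX it kept 1895 of 2252 cells, and in control sham 1646 of 2111. Cells with less than 4% of UMIs from Sftpc are outside these levels, and the gate set no limit on myeloid genes. Cxcl16, the ligand of CXCR6, had 74.3 CPM in null PNX AT2 cells, 84.3 in null sham, 64.9 in control PNX and 50.6 in control sham. Il17rc had 36.1, 23.4, 20.5 and 19.4 CPM and Il17ra 5.84, 10.7, 10.1 and 7.94 CPM in the same order. Lcn2, an antimicrobial gene that IL-17 can raise in epithelium, had 2078 CPM in null PNX AT2 cells, against 656, 532 and 387 CPM in the others. Ccl20, the ligand of CCR6, had 2.26 CPM in null PNX on 29 UMIs, against 1 UMI in null sham, 1 in control PNX and 0 in control sham. Other genes that IL-17 can raise did not all follow Lcn2. Cxcl2 did, with 31.7 CPM in null PNX against 20.6, 3.29 and 9.31 CPM in the others. Steap4 did too, with 8.41 against 2.72, 5.55 and 2.36 CPM, and so did Cxcl5, on 11 UMIs against 0, 1 and 1. Traf3ip2, an IL-17 receptor adaptor gene, had 8.18 against 5.94, 5.86 and 5.83 CPM. S100a8 had 48.8, 71.8, 23.6 and 36.0 CPM in AT2 cells from null PNX to control sham, S100a9 had 44.2, 56.7, 17.1 and 46.5 CPM, and Nfkbiz, an NF-κB cofactor gene, had 10.59, 11.55, 6.48 and 17.4 CPM. Zc3h12a, a gene for an RNase that limits IL-17 signalling, had 3.04, 3.22, 2.26 and 2.85 CPM. Of these genes, null PNX was thus highest for Il17rc, Lcn2, Ccl20, Cxcl2, Steap4, Cxcl5 and Traf3ip2 and lowest for Il17ra. Cxcl16, S100a8, S100a9 and Zc3h12a were highest in null sham and Nfkbiz in control sham. Whether these levels depend on the IL-17 type cells was not tested.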

How the data were processed

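Single-cell 3′ libraries (10x) were made from sorted GFP+ lung cells of 4 groups. The deposited table holds UMI counts of 17117 genes in 10077 cells, made by the authors with Cell Ranger 2.1.0 and Seurat 2.3.4 on mm10, per the submitters' processing notes. Barcode endings gave the library. The cells and gene lists were chosen with earlier results of these data known. Cells have no doublet call and no further filter here, since none of the 55 cells failed a check of at least 500 genes and at most 20% mitochondrial UMIs.

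Counts were summed per library over IL-17 type and other T cells, giving 8 sums, and tested with edgeR 4.0.16 (TMM, filterByExpr, quasi-likelihood) in R 4.3.3, with library as a block because both sums of a pair come from the same library. The 9 genes of the rule entered the totals and were not tested. The sums of a library share mice and handling, and 1 library per group leaves no test between groups. Fitted p-values measure the spread over 4 libraries. The script was tested on simulated counts. Intervals are exact (Poisson, Clopper-Pearson, binomial for ratios) at 95% with SciPy 1.17.1 and cover counting error only. The 4 libraries held 24897537, 17828596, 11233796 and 9868802 UMIs from null PNX to control sham. A level of 0 allows up to 3 counts, which is 23.15 CPM in null PNX and 288.5 CPM in control sham IL-17 type cells.

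The text names genes of the rule, list genes, the 15 highest and 15 lowest called genes with at least 30 UMIs, and between libraries the 5 highest and 5 lowest ratios with at least 50 UMIs. Mitochondrial, ribosomal protein and predicted genes were counted and not named, and a few other genes are not reported here. Genes below the filter were read from a fit with no filter. DESeq2 1.42.0, other gates, other comparison cells and left-out libraries were alternatives. Promoters came from RefSeq (GRCm38.p6) and gene positions from GENCODE on GRCm38. The AGGTCA motif was searched after the data were seen. Tmem176a and Tmem176b overlap on opposite strands, so how their reads were split is uncertain.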

Additional observations from a re-analysis of the deposited data

Results flagged for a closer look

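Cxcr6 in IL-17 type cells was 1.754 times as high in null PNX as in null sham, but 0.5569 times as high in control PNX as in control sham (interval 0.2349 to 1.356), so PNX over sham ran in opposite directions in the 2 genotypes. The difference was not tested. In control sham, 1 of 2 cells held 72.73% of the Cxcr6 UMIs. In null sham, 1 cell with 10929 of the 51020 UMIs had 0 of Cxcr6. Without cells gated through Blk alone, that cell among them, the null PNX over null sham log2 ratio was 0.452 instead of 0.798. Both control sham cells were gated through Blk alone, so the control ratio has no such value.

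Outside the comparison, 11 cells had a type gene and no CD3 UMI (7 in null PNX, 2 in null sham, 1 in control PNX and 1 in control sham). They had a median of 6269 UMIs, 4 had Cd163l1, 3 Il17a and 4 Blk, and 0 had Cxcr6, Il7r or Maf.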

How the results depend on the processing

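The null PNX share of T cells was the highest of the 4 libraries under each gate and depth setting run. With Blk left out of the gate the control sham share was 0, since both its cells were gated through Blk. Leaving out 1 library gave 46 to 67 genes higher and 79 to 119 lower in IL-17 type cells. Without the replicate block, which pairs both sums of a library, 36 genes were higher and 35 lower, and 18 of 70 followed genes lost their call. DESeq2 called 55 lower (44 higher). With no filter 222 were lower (56 higher), the share of calls that were higher was 20.14% instead of 39.38%, and the median of the same genes was -0.40. Against other T cells without Nkg7 or Klrb1c 59 were lower (46 higher), and against those with Cxcr6 22 were higher and 12 lower. The last pair of settings was chosen after seeing the data. For genes with at least 50 UMIs, null PNX over control PNX gave 51 higher and 20 lower at 2-fold, and null PNX over null sham 23 and 20.

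Of 1054 gene values under alternatives, 947 kept direction and call, 89 lost a call, 13 gained one and 5 reversed. The reversals were Id2 (-0.12), the single called gene among them, and Thy1 (-0.48) against Cxcr6+ T cells, Ltb (-0.0714) with no filter, and Cd69 without control sham (0.05986) and without cells gated through Blk alone (0.02689). Over left-out libraries Cd69 ran between -0.3449 and 0.05986. The cause was not tested. Other T cells without gamma delta receptor genes were not run, because those genes were not analysed here. Control sham, with 2 cells and 10398 UMIs, has 1 UMI at 96.17 CPM, and a gene at 0 there may be as high as 288.5 CPM.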

Other observations

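Other signals from AT2 cells to these lymphocytes were measured and described in no comparison above. Il33, an alarmin gene, had 171 CPM in null PNX AT2 cells, 157 in null sham, 230 in control PNX and 179 in control sham. Il7, the ligand of the IL-7 receptor, had 4.83, 4.46, 3.495 and 3.97 CPM in the same order. Il1b, encoding the IL-1 receptor ligand IL-1β, had 19.0, 19.6, 2.26 and 14.0 CPM. Cxcl1, a neutrophil chemokine gene that IL-17 can raise, had 21.1 CPM in null PNX AT2 cells against 6.85, 8.12 and 6.08 CPM in the others, and Il6 had 8.34 against 0.33, 0.51 and 0.50 CPM. Null PNX was highest for Cxcl1 and Il6, while Il33 was highest in control PNX.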
